A study of Mus musculus with 6 samples.

Results

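The transcripts of the proteasome, the protease complex that degrades ubiquitin-tagged proteins, were examined in liver of male mice aged 12 weeks. The animals were 3 chromogranin A knockout mice (Chga_KO), in which the gene of a hormone precursor stored in secretory granules is disrupted, and 3 wild-type mice, with 1 array per liver. The labels do not name the genetic background, the feeding state or a batch. The spread behind each limma p-value is that between livers of the same genotype, pooled over both groups and moderated toward the spread of probe sets of like signal. Probe sets annotated to 1 gene alone were taken where the symbol began with Psma, Psmb, Psmc, Psmd, Psme, Psmf or Psmg and a digit, leaving out Psmb8, Psmb9 and Psmb10, and each gene was read by its brightest probe set. This gave 45 genes on 82 probe sets, of 12393 genes on the array with a probe set of their own. Of these, 43 were proteasome subunits, assembly chaperones or regulators. The other two match by letters only: Psmc3ip encodes a partner of the meiotic recombinases, and Psme3ip1 a protein that binds the activator Psme3.

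The proteasome consists of a barrel-shaped core and of caps that open it. The core stacks outer rings of α subunits (Psma), which form the gate, on inner rings of β subunits (Psmb), of which Psmb5, Psmb6 and Psmb7 carry the proteolytic sites. The cap has a base, in which a ring of ATPases (Psmc) unfolds the substrate, and a lid that removes ubiquitin. In stressed or inhibited cells the subunit genes are known to be induced together by the transcription factor Nfe2l1, which acts through antioxidant response elements in their promoters. In immune cells, and under interferon, Psmb8, Psmb9 and Psmb10 replace the proteolytic subunits Psmb5, Psmb6 and Psmb7.

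The promoters of these genes are shown where they hold the core of that element, because it is the element through which Nfe2l1 is known to induce them. RefSeq promoters of build GRCm38.p6 were matched for 35 of the 42 genes described below, in 37 windows of 250 bases before an annotated start. The letters TGACNNNGC, searched on both strands, occurred in 5 of the 37 windows (Psmb5, Psmb6, Psmc6, Psmd9 and Psmd12), against 10.2% of 32851 windows of the same length over all genes. CCAAT, which shares no stretch with that motif, occurred in 12 of the 37 windows, against 33.8% over all genes. A match is a run of letters and not a measured binding site. The windows of the 3 core and base genes with a TGACNNNGC match are given 5′ to 3′ on the strand of the gene, with the match in capitals; in Psmc6 it lies on the opposite strand. The match began 227 bases before the start in Psmc6, 47 in Psmb5 and 9 in Psmb6.
Psmc6, chr14:45329574-45329823, plus strand: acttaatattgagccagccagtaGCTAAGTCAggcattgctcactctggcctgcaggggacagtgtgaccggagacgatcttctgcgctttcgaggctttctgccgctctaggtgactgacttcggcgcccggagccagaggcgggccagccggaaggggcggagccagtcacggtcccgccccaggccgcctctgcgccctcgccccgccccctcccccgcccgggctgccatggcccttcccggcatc
Psmb5, chr14:54617996-54618245, minus strand: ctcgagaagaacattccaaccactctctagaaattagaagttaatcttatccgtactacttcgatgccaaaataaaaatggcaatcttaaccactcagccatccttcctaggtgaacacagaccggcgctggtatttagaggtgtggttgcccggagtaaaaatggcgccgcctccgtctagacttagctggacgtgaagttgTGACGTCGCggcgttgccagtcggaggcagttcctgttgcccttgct
Psmb6, chr11:70525107-70525356, plus strand: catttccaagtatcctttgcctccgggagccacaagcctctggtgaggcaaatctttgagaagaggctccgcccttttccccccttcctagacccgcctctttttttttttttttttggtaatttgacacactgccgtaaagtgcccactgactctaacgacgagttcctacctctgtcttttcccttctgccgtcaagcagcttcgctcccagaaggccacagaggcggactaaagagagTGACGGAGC

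Arrays correlated between 0.933 and 0.937 in knockout pairs and between 0.942 and 0.948 in wild-type pairs (Pearson's r of log2 signals across probe sets, which are not independent), with 0 identical pairs. Pairs of a knockout and a wild-type array lay between 0.933 and 0.943. For the actin controls, the 5′ probe set over the 3′ one lay between 0.351 and 0.366 in knockout arrays and between 0.356 and 0.366 in wild-type arrays. Chga read 61.5, 44.5 and 231 arbitrary units in knockout arrays and 167, 185 and 42.5 in wild-type arrays. This is the 17.9th percentile of the table, too dim for the signal to check which livers lack the gene. The tissue label was matched by hepatocyte markers such as Alb and Ttr, of which 8 of 8 were above background on every array. Cholangiocyte markers were above background on every array for 0 of 4 genes. Of the tested markers of other cells, 6 of 6 stellate cell genes and 5 of 7 endothelial genes were lower in knockout, with 0 called. The stellate cell genes Col3a1 (log2 change -0.61 ± 0.18) and Reln (-0.48 ± 0.17) had an unadjusted limma p under 0.05. Of the endothelial genes 0 did, and of all tested probe sets 9.97%. Over all tested probe sets 46.8% had a log2 change above 0. Of 8 lymphocyte genes on the array only Ptprc was bright enough to be tested (log2 change -0.22 ± 0.29). Their summed signal, Ptprc included, ran from 1981 to 2394 units in knockout arrays and from 1943 to 2291 in wild-type arrays.

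Of 44 genes bright enough to be tested, 0 differed between knockout and wild-type liver at an adjusted p under 0.05 (limma with Benjamini-Hochberg over all probe sets tested), where 0.376% of all 13576 probe sets did (0.192% higher and 0.184% lower). At an unadjusted p under 0.05 there was 1 of the 44, Psmc2, which was higher, against 9.97% of all probe sets (4.38% higher and 5.58% lower). The groups did not overlap for 4 of the 44, with knockout above for Psma3, Psmd11 and Psmg4 (7.44% of all probe sets) and below for Psmd3 (8.12%), and 15.6% of all probe sets were free of overlap in either direction. The dimmest of the 45 genes were Psmc3ip, which was below the filter, and Psma8, a subunit of testis proteasomes, which passed it with 600, 229 and 610 units in knockout arrays and 497, 625 and 268 in wild-type arrays. The text below concerns the other 42 genes, subunits with their chaperones and regulators and without the other gene that matches by letters, Psme3ip1 (log2 change -0.13 ± 0.17). All 42 were above background on each of the 6 arrays.

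The levels of these 42 genes stayed close together over the 6 livers. The highest array exceeded the lowest by a median of 1.24 times, from 1.05 times for Psmb7 to 1.90 times for Psmg4. The median was 1.56 over all tested probe sets and 1.38 over the 7064 probe sets at least as bright as the dimmest of the 42. That dimmest gene, Psmg4, stood at the 68.8th percentile of mean level, and Psmb7 at the 97.4th. The comparison is thus not matched for brightness, and whether the smaller spread is particular to proteasome genes was not tested. The log2 changes, knockout minus wild type on log2(signal + 16), ran from -0.20 for Psmd3 to 0.40 for Psmg4, and 38 of the 42 were smaller than 0.2 in either direction. Their median was -0.0075, with 20 above and 22 below 0, where the median of all tested probe sets was -0.018 and 46.8% of them were above 0. The 25th and 75th percentiles over all tested probe sets were -0.19 and 0.14, and their share smaller than 0.2 was not counted. For 40 of the 42 genes the unadjusted 95% interval of the change lay within a 1.5-fold difference in either direction. The exceptions were Psme3 (-0.055 to 0.66) and Psmg4 (-0.033 to 0.84). The same share over all tested probe sets was not counted. Among the 31 subunits of the core and cap the intervals reached from -0.48 to 0.51. In whole liver RNA, fewer cells of a type and less RNA per cell cannot be told apart.

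**Figure D1:**
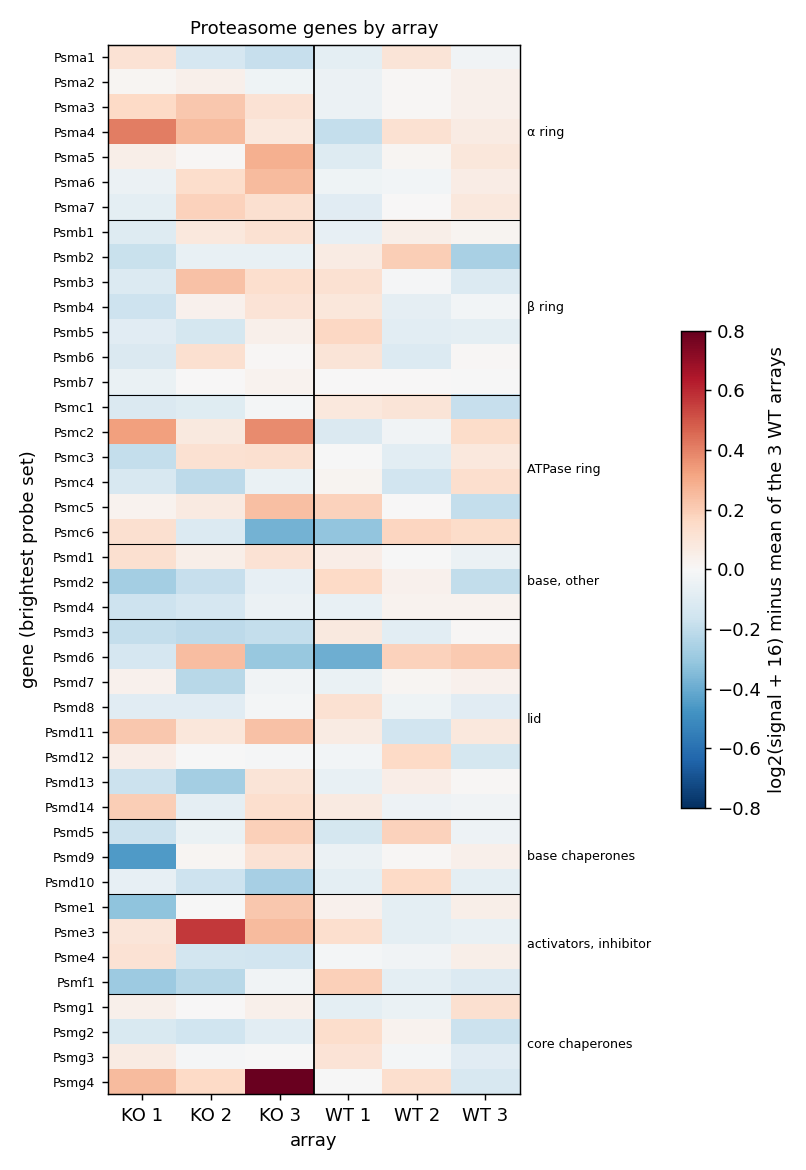
Each row is one of 42 proteasome genes and each column an array, knockout left of wild type; the colour is log2(signal + 16) minus the mean of the 3 wild-type arrays, and lines separate the subcomplexes. Most cells are pale, and the darkest is Psmg4 in knockout replicate 3, which read 2297 units.

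The α ring was the subcomplex whose knockout arrays all lay above the wild-type arrays, by the mean over its genes. Of single tested probe sets, 15.6% were free of overlap in either direction, and the share among gene groups of this kind was not computed. Of its 7 genes, 6 had a higher mean in knockout liver, with a median log2 change of 0.11 and a range from -0.067 (Psma1) to 0.25 (Psma4), and 0 of 7 passed the test. Psma4, whose product helps to form the gate, read 21298, 19159 and 16982 units in knockout arrays and 14071, 17462 and 16809 in wild-type arrays. The groups overlapped by knockout replicate 3, and the log2 change was 0.25 ± 0.12 (SE, n = 3 per group, limma adjusted p = 0.529). Psma3 read 37566, 39063 and 36431 units in knockout arrays and 32639, 33883 and 34591 in wild-type arrays. Every knockout array was above every wild-type array, and the log2 change was 0.16 ± 0.08 (limma adjusted p = 0.559). Psma5 (0.11 ± 0.10), Psma6 (0.12 ± 0.10) and Psma7 (0.079 ± 0.10) lay at about 1 SE above 0. Psma2 averaged 17704 ± 481 units in knockout and 17632 ± 555 in wild-type arrays (SD), and Psma1 averaged 15456 ± 1759 and 16144 ± 1073 units in knockout and wild-type arrays.

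The mean shift of the 7 α genes from their wild-type mean was 0.088, 0.10 and 0.091 on the log2 scale in knockout arrays, against -0.085, 0.034 and 0.051 in wild-type arrays. The lowest of the 6 was wild-type replicate 1. The median change of the ring was 0.049 without knockout replicate 3 and 0.060 without wild-type replicate 1. The 8 hepatocyte markers were also higher in knockout liver, 8 of 8 with a median of 0.098 and 0 called, and their summed signal ran from 1043188 to 1174560 units in knockout arrays and from 972175 to 1077410 in wild-type arrays; their part in the shift of the α ring was not tested.

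**Figure D2:**
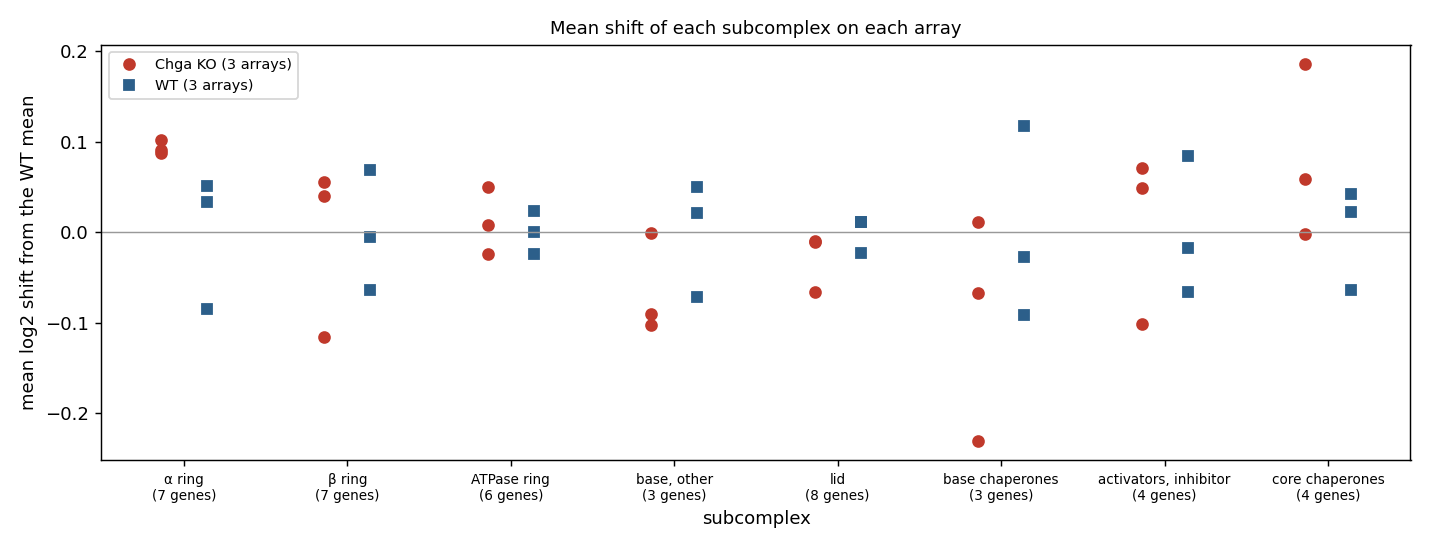
Points give, for each array, the mean over the genes of a subcomplex of log2(signal + 16) minus the wild-type mean of the gene; circles are the 3 knockout arrays and squares, to their right, the 3 wild-type arrays. The knockout points of the α ring, from 0.088 to 0.10, lie above its wild-type points, and in the other 7 subcomplexes the groups overlap.

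The β ring, which holds the proteolytic sites, lay near 0. Of its 7 genes 3 were higher and 4 lower in knockout, the median log2 change was -0.0072, and 0 passed. Psmb7, which carries the trypsin-like site, was the steadiest of the 42 genes, at 32393, 33627 and 34152 units in knockout arrays and 33603, 33565 and 33513 in wild-type arrays, a log2 change of -0.0077 with a 95% interval from -0.18 to 0.17. Its wild-type arrays lay within the span of the knockout arrays. Psmb5, the chymotrypsin-like subunit and the main target of proteasome inhibitor drugs, averaged 8836 ± 590 units in knockout and 9243 ± 944 in wild-type arrays (SD, n = 3 each). Psmb6, the caspase-like subunit, averaged 15576 ± 1306 units in knockout and 15491 ± 1137 in wild-type arrays. The 3 promoter windows printed above thus belong to genes with log2 changes of -0.062 ± 0.11 (Psmb5), 0.0071 ± 0.10 (Psmb6) and -0.12 ± 0.16 (Psmc6).

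The structural β subunits differed as little. Psmb3 read 18168, 23083 and 21569 units in knockout arrays and 21359, 19494 and 18174 in wild-type arrays (log2 change 0.086 ± 0.11). Psmb2 read 3630, 3945 and 3947 units in knockout arrays and 4300, 4704 and 3430 in wild-type arrays (-0.098 ± 0.14). In both genes the groups overlapped. Psmb1 (0.035 ± 0.097) and Psmb4 (-0.0072 ± 0.098) were within their errors of 0.

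The subunits that replace the proteolytic β subunits in the immunoproteasome did not move as one. Psmb10, which takes the place of Psmb7, read 2609, 2873 and 2655 units in knockout arrays and 3865, 3308 and 3332 in wild-type arrays. All knockout arrays were below all wild-type arrays, at 0.777 times the wild-type level (log2 change -0.36 ± 0.13), with an unadjusted p of 0.0179 and an adjusted p of 0.374 in the limma fit, so it did not pass. Psmb8, the replacement for Psmb5, read 1883, 2563 and 2158 units in knockout arrays and 2276, 2038 and 1584 in wild-type arrays (0.17 ± 0.18), and Psmb9, the replacement for Psmb6, read 1505, 1980 and 1726 units in knockout arrays and 1966, 1568 and 1162 in wild-type arrays (0.17 ± 0.21). Both overlapped between groups.

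Within each array, the log2 signal of each immunoproteasome subunit was set against that of its constitutive counterpart. The value for Psmb10 over Psmb7 was -3.63, -3.54 and -3.68 in knockout arrays and -3.11, -3.34 and -3.32 in wild-type arrays, a difference of -0.36. The groups did not overlap, and the two-sided exact permutation p was 0.1, the smallest that 3 against 3 arrays allow (adjusted p = 0.3 over the 3 pairs). The difference was 0.23 for Psmb8 over Psmb5 (exact permutation p = 0.5, adjusted 0.7) and 0.16 for Psmb9 over Psmb6 (exact permutation p = 0.7, adjusted 0.7). Kupffer cell and macrophage markers had 10 genes on the array, of which 8 were above background on all arrays and 9 were tested, 8 lower and 1 higher in knockout with 0 called. Their summed signal ran from 17114 to 27020 units in knockout arrays and from 21555 to 28211 in wild-type arrays. Marco was below background on all arrays and Cd68 on 1 knockout array, and the part of these cells in the lower Psmb10 signal was not tested.

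**Figure D3:**
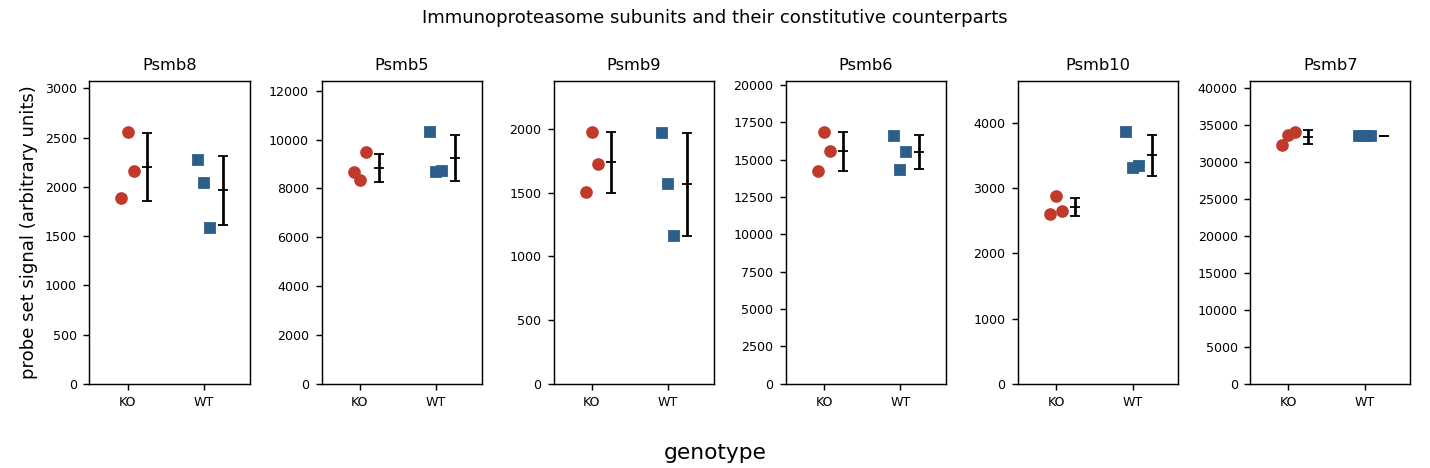
Probe set signal in arbitrary units, each panel on its own axis from 0, for the 3 immunoproteasome subunits, each left of its constitutive counterpart; circles are knockout and squares wild-type arrays, and the bar beside them is the mean ± SD of 3 arrays. The groups are apart for Psmb10, at 2712 ± 141 units in knockout and 3502 ± 315 in wild-type arrays, and overlap in the other 5 panels.

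In the ATPase ring of the base, 3 of 6 genes were higher and 3 lower in knockout liver, with a median log2 change of -0.028 and 0 called. Psmc2 read 28778, 24191 and 29800 units in knockout arrays and 21191, 22494 and 25369 in wild-type arrays. Knockout replicate 2 lay below wild-type replicate 3, so the groups overlapped, and the log2 change was 0.26 ± 0.11 with an unadjusted p of 0.0379 and an adjusted p of 0.470 in the limma fit. Its second probe set did not show this difference, with 20390, 17260 and 22240 units in knockout arrays and 18576, 20191 and 20278 in wild-type arrays (0.014 ± 0.11). Psmc4 read 6485, 6114 and 6836 units in knockout arrays and 7181, 6358 and 7794 in wild-type arrays, with overlap between groups (-0.13 ± 0.12). The other ATPases lay between -0.12 (Psmc6) and 0.11 (Psmc5).

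On the 2 brighter of its 3 tested probe sets, Psmc6 varied more between livers of 1 genotype than between genotypes. The third and dimmest had knockout below wild type without overlap (-0.58 ± 0.25), as 8.12% of all tested probe sets did. The brightest read 9904, 8408 and 6965 units in knockout arrays and 7257, 10194 and 10030 in wild-type arrays. The second had 8288, 6670 and 5598 units in knockout arrays and 5384, 7840 and 7835 in wild-type arrays. Both of these brighter probe sets were lowest in knockout replicate 3 and wild-type replicate 1 within their groups. The lid gene Psmd6 had its lowest signals in the same 2 arrays, with 16771, 21829 and 14900 units in knockout arrays and 14035, 20917 and 21307 in wild-type arrays, while its second probe set was steadier, from 11174 to 12850 units in knockout and from 10981 to 12946 in wild-type arrays. Psmc6 and Psmd6 were singled out after their values were seen.

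Of the other base subunits, Psmd2, which binds the shuttle proteins that deliver ubiquitinated substrates, read 8171, 8698 and 9423 units in knockout arrays and 11029, 10139 and 8626 in wild-type arrays (log2 change -0.18 ± 0.12). Psmd4, a ubiquitin receptor, read 9388, 9610 and 10173 units in knockout arrays and 10108, 10734 and 10756 in wild-type arrays (-0.12 ± 0.10). Each overlapped in part, and a second probe set of Psmd4 stood at 0.0067 ± 0.11. Psmd1, a scaffold of the base, was at 0.098 ± 0.096. The 3 genes had 1 higher and 2 lower and 0 called.

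The lid had 3 of 8 genes higher and 5 lower in knockout, with a median of -0.065 and 0 called. Psmd11, a scaffold that helps hold the cap on the core, read 51039, 46690 and 51657 units in knockout arrays and 45996, 39475 and 46554 in wild-type arrays. Its groups did not overlap, though the nearest arrays read 46690 units in knockout and 46554 in wild type, and the log2 change was 0.18 ± 0.09 (limma adjusted p = 0.574). Psmd3, another lid scaffold, was alike in the knockout livers, at 2709, 2681 and 2717 units, against 3265, 2915 and 3122 units in the wild-type livers. All knockout arrays were lower, at 0.873 times the wild-type level (-0.20 ± 0.12, limma adjusted p = 0.645). Psmd14, the deubiquitinase of the lid, stood at 0.088 ± 0.11, and its partner Psmd7 at -0.071 ± 0.12. Psmd8 (-0.065 ± 0.10), Psmd12 (0.015 ± 0.10) and Psmd13 (-0.11 ± 0.14) were likewise near their errors.

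**Figure D4:**
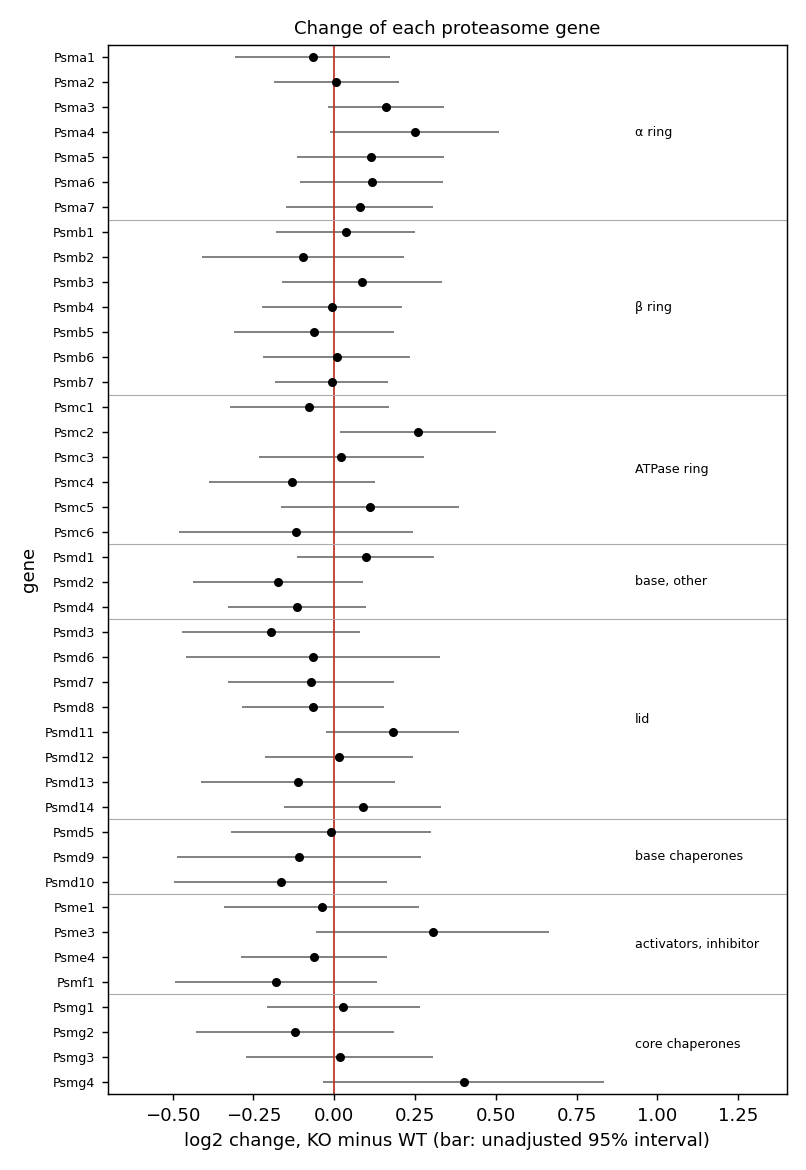
Points are the log2 change of each gene, knockout minus wild type, from the limma fit of 3 against 3 arrays, and bars are unadjusted 95% intervals. The interval of Psmc2, from 0.017 to 0.50, is the one among 42 that leaves out 0, and the widest is that of Psmg4.

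The chaperones that assemble the base were lower in knockout for 3 of 3 genes, with 0 called. Psmd10, also known as gankyrin, read 1969, 1840 and 1711 units in knockout arrays and 1951, 2308 and 1951 in wild-type arrays (-0.17 ± 0.15). Psmd9 read 1653, 2294 and 2459 units in knockout arrays and 2195, 2289 and 2336 in wild-type arrays (-0.11 ± 0.17), where knockout replicate 1 was the low array; without it the change was 0.063. Psmd5 read 3947, 4294 and 5073 units in knockout arrays and 4027, 5054 and 4327 in wild-type arrays (-0.011 ± 0.14).

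Among the chaperones that assemble the core, Psmg4 had the largest log2 change of the 42 genes. It read 1577, 1480 and 2297 units in knockout arrays and 1317, 1451 and 1207 in wild-type arrays. The groups did not overlap, but knockout replicate 2 and wild-type replicate 2 were 1480 and 1451 units, and the log2 change of 0.40 ± 0.20 (limma adjusted p = 0.548) was 0.21 without knockout replicate 3. Its partner Psmg3 averaged 2626 ± 80.5 units in knockout and 2599 ± 182 in wild-type arrays. Psmg1 read 7080, 6905 and 7106 units in knockout arrays and 6533, 6639 and 7551 in wild-type arrays (0.028 ± 0.11). Psmg2, which pairs with Psmg1, read 2409, 2344 and 2475 units in knockout arrays and 2894, 2673 and 2326 in wild-type arrays (-0.12 ± 0.14).

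Of the alternative activators, Psme3, which caps nuclear proteasomes and needs no ATP, read 2033, 2821 and 2274 units in knockout arrays and 2090, 1804 and 1827 in wild-type arrays. Knockout replicate 1 lay within the wild-type arrays, and the log2 change was 0.30 ± 0.16 (limma adjusted p = 0.581), while a second and dimmer probe set of the gene stood at -0.35 ± 0.25. Psme4, another nuclear activator, read 18048, 15100 and 14998 units in knockout arrays and 16474, 16338 and 17272 in wild-type arrays (-0.062 ± 0.10). Psme1, a subunit of the interferon-inducible activator, averaged 9130 ± 1683 units in knockout and 9274 ± 438 in wild-type arrays. The probe set of its partner is annotated to Psme2 and Psme2b together and stood outside the rule, at 0.16 ± 0.13. Psmf1, known as an inhibitor of the isolated core, read 2621, 2751 and 3138 units in knockout arrays and 3653, 3031 and 2975 in wild-type arrays (-0.18 ± 0.14). The 4 genes had 1 higher, 3 lower and 0 called.

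Several probe sets of a gene gave a second reading of the same liver RNA. Of the 42 genes 18 had more than 1 tested probe set, which added 25 probe sets; 0 of these passed the adjusted threshold and 2 had an unadjusted p under 0.05. In 18 of the 25 the sign was that of the brightest probe set. It differed for 7 genes, Psma6, Psmd4, Psmd11, Psmd13, Psme3, Psme4 and Psmf1. The brightest probe set of Psma6, an α ring subunit, read 20054, 22881 and 24638 units in knockout arrays and 20180, 20381 and 21602 in wild-type arrays, and another stood close to it at 0.091 ± 0.086. A dimmer one, with 1335, 559 and 874 units in knockout arrays and 1244, 1288 and 1340 in wild-type arrays, stood at -0.56 ± 0.28, and its low arrays were knockout replicates 2 and 3. Psmd11 had 5 tested probe sets, 4 between 0.0050 and 0.29 and 1 at -0.57 ± 0.47, whose signals lay between 144 and 491 units in knockout arrays and between 381 and 565 in wild-type arrays. Psmd13, a lid subunit, read 3257, 3034 and 3949 units in knockout arrays and 3516, 3805 and 3696 in wild-type arrays on its brightest probe set (-0.11 ± 0.14), and 2369, 2032 and 2292 units in knockout arrays and 2147, 1769 and 1787 in wild-type arrays on the other (0.23 ± 0.15). The groups overlapped on both. For Psme4 and Psmf1 the others ran from -0.052 to 0.051 and from -0.15 to 0.063.

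**Figure D5:**
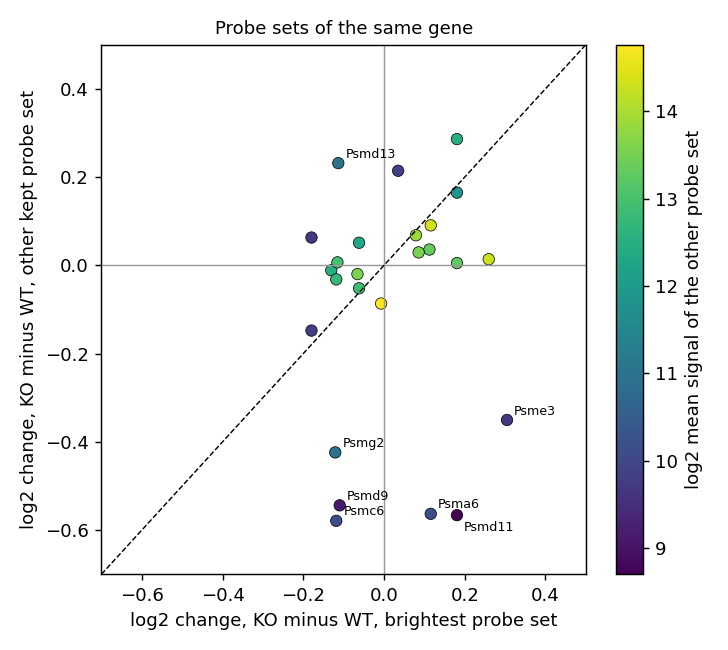
Each point is one of 25 further tested probe sets, with the log2 change (knockout minus wild type) of the brightest probe set of its gene on the horizontal axis and its own on the vertical axis, coloured by its mean signal; the dashed line marks equality. Among the points far below the line are 1 probe set each of Psmc6 (-0.58), Psmd11 (-0.57), Psma6 (-0.56), Psmd9 (-0.54), Psmg2 (-0.42) and Psme3 (-0.35). That of Psmd13 (0.23, against -0.11 for its brightest probe set) lies far above it.

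Genes around the proteasome gave a like picture, with 0 called in each list. Of 8 proteins that bind or mature the proteasome, 5 were higher and 3 lower in knockout, with a median of 0.033. Ecpas, which tethers the cap to the core, read 1633, 1950 and 2253 units in knockout arrays and 2485, 2470 and 2035 in wild-type arrays (-0.26 ± 0.17). Uchl5, a deubiquitinase of the cap, read 4314, 4173 and 3269 units in knockout arrays and 3414, 3734 and 3483 in wild-type arrays (0.14 ± 0.14). Pomp, the maturation chaperone of the core, stood at 0.093 ± 0.10.

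The regulators of proteasome gene transcription had 7 tested genes, 4 higher and 3 lower, with a median of 0.094. Nfe2l1 itself read 1385, 1375 and 976 units in knockout arrays and 1611, 1272 and 2004 in wild-type arrays (-0.38 ± 0.22, limma adjusted p = 0.607), with overlap between groups. Mafk, which encodes a small partner of such factors, read 1073, 883 and 1067 units in knockout arrays and 402, 593 and 1153 in wild-type arrays (0.61 ± 0.34, limma adjusted p = 0.592). Wild-type replicate 3 was the highest of the 6 arrays. Among 11 substrate shuttles and unfoldase genes, 6 were higher and 5 lower, with a median of 0.0066. The unfoldase Vcp, which extracts ubiquitinated proteins for degradation, read 26104, 28650 and 27495 units in knockout arrays and 27635, 24508 and 24969 in wild-type arrays (0.094 ± 0.090). Its cofactor Nploc4 read 2234, 1390 and 1908 units in knockout arrays and 2402, 1685 and 2238 in wild-type arrays (-0.20 ± 0.21). The groups overlapped for both. The ubiquitin genes were not analysed here.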

How the data were processed

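Liver RNA of 3 Chga knockout and 3 wild-type mice was measured on 1 Affymetrix array each. The deposited values are probe set intensities on a linear scale in arbitrary units, made by the authors with GCOS 1.2, per the submitters' processing notes. The mean left after trimming 2% at each end was 2500 on every array, so arrays had been scaled before deposit; the scaling rule is not stated in these sources. Of 22690 probe sets 64 controls were left out; of 22626, the platform annotation gave 20380 probe sets 1 gene, 691 several and 1555 none. Symbols were updated through RefSeq (GRCm38.p6), which changed 0 of the members. The upper 60% by mean log2(intensity + 16), 13576 probe sets, were tested with limma 3.58.1 in R 4.3.3 (lmFit, eBayes with trend, no covariate) and Benjamini-Hochberg at 0.05. Changes are knockout minus wild type; the pseudocount understates those of dim probe sets. Errors are SE of the fit or SD over arrays. Background is the 95th percentile of 27 dim Bacillus subtilis controls, from 151 to 322 units per array, chosen after seeing the data. The number of arrays limits the precision.

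In each subcomplex, values on all arrays are given for the 2 genes with the smallest unadjusted p and the one with the highest mean signal, and in each related list for 2 genes; genes whose probe sets differ in sign are named. Members, lists and tests were chosen with earlier results of these data known. Alternatives were smaller and larger pseudocounts (3 in all), quantile normalization, median centring, no filter, the upper 40%, no trend, array weights, replicate blocks, averaging the probe sets of each gene and each array left out. The fit was tested on simulated data with the levels and spread of all 13576 tested probe sets. It called 47.2% of 2-fold and 85.6% of 4-fold changes, and 5.0% of the calls were false. The median SD within groups was 0.22 on the log2 scale over all tested probe sets and 0.12 over the 42 proteasome genes. The called shares are thus not those for the 42 genes, which were not simulated apart. Signals of different probe sets are not on a common scale.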

Additional observations from a re-analysis of the deposited data

How the results depend on the processing

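Under each of the 17 alternatives 0 proteasome genes were called, the lowest adjusted p of a tested gene being 0.367, and the median change of the 42 genes lay between -0.022 and 0.019. The count over all probe sets, 51, was 85 with the largest pseudocount tried, 82 with array weights, 7 without the intensity trend and 27 with the replicate block, and from 21 to 48 with 1 array left out (21 without wild-type replicate 3 and 23 without wild-type replicate 1); the cause was not tested. Same-numbered arrays did not deviate together (r of -0.059, -0.060 and -0.065). With so few arrays these values cannot show whether the replicate numbers pair the samples. With the replicate block 0 proteasome genes were called. The median change with 1 array left out ran from 0.049 to 0.16 for the α ring, from -0.17 to 0.063 for the base chaperones and from -0.055 to -0.015 for the lid; with the probe sets of each gene averaged it was 0.053 for the other base subunits, 0.037 for the lid and 0.086 for the activators and inhibitor. Of 747 single gene values 703 kept their sign and 44, of 22 genes whose main change was at most 0.18 in size, did not. These log2 changes turned after quantile normalization, Psma2 -0.0053 and Psmd5 0.023; after median centring, Psmb4 0.0072, Psmb7 0.0068 and Psmd5 0.0031; with array weights, Psmb4 0.0042, Psmd6 0.012 and Psma8 -0.24; with the probe sets of each gene averaged, dim ones included, Psma6 -0.20, Psmd4 0.053, Psmd7 0.19, Psmd13 0.059 and Psmf1 0.19. With 1 array left out, the range crossed 0 for Psmb4 from -0.066 to 0.071, Psmb7 from -0.024 to 0.014, Psmd12 from -0.056 to 0.095, Psmd5 from -0.11 to 0.080, Psmd9 from -0.22 to 0.063, Psme1 from -0.16 to 0.11, Psmg3 from -0.028 to 0.071, Psma8 from -0.33 to 0.45, Psma2 from -0.018 to 0.027, Psmb6 from -0.053 to 0.068, Psmc3 from -0.032 to 0.13, Psmd7 from -0.13 to 0.0027, Psmb1 from -0.0083 to 0.10, Psmc6 from -0.28 to 0.011, Psmd6 from -0.26 to 0.054, Psmb5 from -0.11 to 0.020, Psmg1 from -0.010 to 0.094 and Psme3ip1 from -0.28 to 0.019. Dim probe sets carry the larger errors.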

Other observations

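Of the 25 further tested probe sets, 1 each of Psmg2, Psmc6 and Psmd9 had knockout below wild type without overlap. Each also had a lower log2 change than the brightest probe set of its gene. These 3 are given because their values stood out when they were seen. A lower change than the brightest one was found in other genes too, among them Psmd11 (-0.57 against 0.18) and Psma6 (-0.56 against 0.12). Other further probe sets had a higher change than the brightest one, among them those of Psmd13 (0.23 against -0.11) and Psmb1 (0.21 against 0.035). Knockout lay below wild type without overlap for 8.12% of all tested probe sets. The second probe set of Psmg2, a core assembly chaperone, read 1756, 1568 and 1731 units in knockout arrays and 2303, 2578 and 1951 in wild-type arrays. All knockout arrays were lower (log2 change -0.42 ± 0.16, limma adjusted p = 0.396). The third probe set of the ATPase gene Psmc6 read 990, 1098 and 575 units in knockout arrays and 1286, 1384 and 1194 in wild-type arrays, again without overlap (-0.58 ± 0.25, limma adjusted p = 0.483). The second probe set of Psmd9 read 483, 521 and 331 units in knockout arrays and 592, 526 and 858 in wild-type arrays (-0.54 ± 0.32, limma adjusted p = 0.609). Its groups did not overlap either, though the nearest arrays read 521 units in knockout and 526 in wild type. Maff, a small partner of Nfe2l1, was too dim to be tested and read 106, 127 and 96.3 units in knockout arrays and 146, 557 and 229 in wild-type arrays.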
